A study of Mus musculus with 2 samples.

Results

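Caspases, the adaptor Apaf1 and the inhibitor of apoptosis proteins (IAPs) form the machinery that carries out programmed cell death, and 8 of their genes were followed here: Casp2, Casp6, Casp8, Casp9, Apaf1, Xiap, Birc2 and Birc3. Every array probe whose accession matched 1 of these named genes was kept, which gave 12 probes for 8 of the 17302 genes named on the arrays. The samples were mouse hybridoma cells, the immortal fusion products of a B cell and a myeloma cell that secrete antibody. The label names their strain as 1H5F9, and both cultures were kept in medium with heat-inactivated fetal bovine serum. One culture received 0 µg/ml and the other 5 µg/ml of the bursal peptide BSP-II, each for 4 h. Each dose is represented by 1 single-colour Cy3 array labelled replicate 1, so n = 1 per group, and no p-value, standard deviation or replicate check can be given. A second experiment named in the series' design was not analysed here. RNA from a whole culture was measured, so fewer cells of a kind and less RNA per cell cannot be told apart.

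Caspases are proteases made as inactive precursors. Initiator caspases are switched on when adaptor platforms bring them together: Apaf1, bound by cytochrome c released from mitochondria, assembles the apoptosome that activates Casp9; Fadd recruits Casp8 to death receptors; Pidd1 and Cradd recruit Casp2. Effector caspases then cut cell proteins, and IAPs restrain the process, Xiap by binding active caspases and Birc2 and Birc3 mainly as ubiquitin ligases in TNF receptor and NF-kB signalling. Most of this control acts on the proteins, by cleavage and binding, which an RNA array does not measure.

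All 8 genes had a probe well above background on both arrays, and none reached a log2 difference of 0.32 in either direction between the BSP-II and the untreated array. Of all 12857 genes well above background on both arrays, 5.61% were past 0.32 higher and 14.5% lower. Casp9 (log2 difference 0.29), Apaf1 (0.23), Casp6 (0.18) and Birc3 (0.14) were higher on the BSP-II array; Casp2 (−0.24), Casp8 (−0.22), Birc2 (−0.09) and Xiap (−0.05) were lower. Each of these values rests on 1 spot per array, and the error that the scanner software gives a spot, carried to the log2 difference, was 0.20 to 0.24. The absolute difference was larger than 1 such error for 4 genes (Casp9, Apaf1, Casp2 and Casp8) and larger than 2 errors for 0 of the 8. The share of all genes past 1 or 2 errors was not computed. Of all genes, 32.6% had a larger absolute difference than Casp8, the smallest of these 4. At bright probes this error was a nearly constant share of the signal, on the untreated array 293 on 2932 for Casp2 and 99.5 on 995 for Casp8. Counting values beyond 1 or 2 errors is thus close to a fixed cut on the log2 difference. The spots of 149 repeated probes had a smaller median SD, 0.07. The error belongs to a spot and leaves out differences between cultures, RNA preparations and hybridisations.

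**Figure D1:**
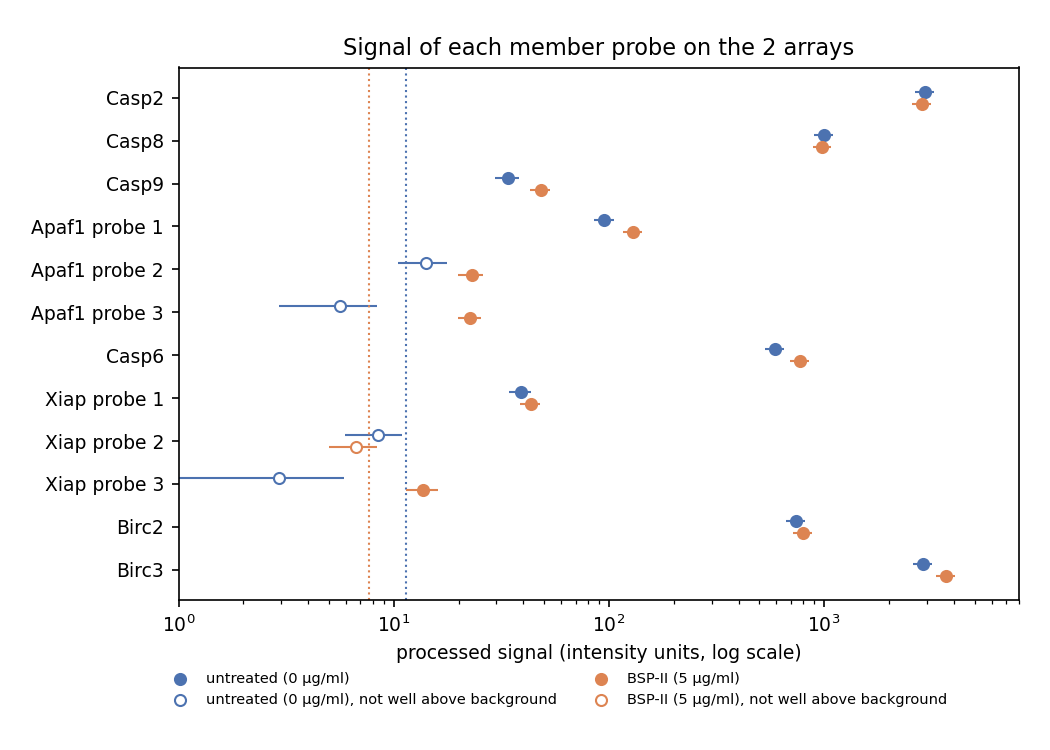
Processed signal (intensity units, log scale) of each of the 12 probes on the untreated and the BSP-II array; bars are 1 scanner error, open circles are spots not well above background, and dotted lines mark the lowest signal called well above background on each array (11.4 untreated, 7.66 BSP-II). The 8 leading probes have close pairs of points, and the open circles belong to the further probes of Apaf1 and Xiap; the bar of Xiap probe 3 on the untreated array runs past the left edge.

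The arrays differed in brightness and background, which bears on the dimmer members. The 75th percentile of the processed signal, to which each array was scaled, was 309 without and 356 with BSP-II. Equal signals before scaling thus give a lower scaled value with BSP-II. Local background had a median of 46 and 37. More probes were called well above background with BSP-II than without (27284 against 24683), and no spot of a gene probe was saturated. The 8 markers of plasma cells and hybridomas, among them Jchain (signals 150869 and 155073), Mzb1 and Sdc1, were well above background on both arrays, as were 5 of 6 T cell, 3 of 4 fibroblast and 2 of 4 matched macrophage markers, at signals of no more than 209 (Cd3e, untreated).

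The initiator caspases did not go one way. The Casp2 probe (A_51_P296448, accession NM_007610, gene on chromosome 6) gave a processed signal of 2932 untreated and 2859 with BSP-II. After scaling, the BSP-II value was 0.846 of the untreated one, a log2 difference of −0.24, with a 95% interval from the scanner error of −0.64 to 0.16. The Casp8 probe (A_51_P247799, chromosome 1), for the caspase of death receptors, gave 995 and 982, which is 0.856 of the untreated value and −0.22 on the log2 scale (−0.62 to 0.18). For both genes the signals before scaling were nearly equal; the scaling adds −0.21 to every log2 difference, because the 75th percentile of the BSP-II array was higher. The Casp9 probe (A_52_P663602, chromosome 4), for the caspase of the mitochondrial route, gave 34.0 and 48.1, a 1.23-fold higher value and the highest of the members at 0.29 (−0.18 to 0.77).

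Casp9 was the member whose value moved most with background correction. Its raw spot brightness was 81.5 untreated and 90 with BSP-II, while its local background was 46 and 39, so a large part of each raw value was background. Without background subtraction its log2 difference was −0.03, and with the normexp correction it was 0.11. Loess scaling gave 0.42, as did the authors' value table. The Casp9 value was thus on either side of 0 depending on the treatment of a background that itself differed between the arrays.

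Apaf1 (chromosome 10), the platform of Casp9, was the only member besides Xiap with 3 probes, and all 3 had a higher scaled value on the BSP-II array. Its leading probe (A_51_P417701) gave 95.2 untreated and 128.9 with BSP-II, 1.17-fold higher and 0.23 on the log2 scale (−0.18 to 0.64). The other probes, all with the same accession, were well above background on the BSP-II array only. A_52_P621991 went from 14.1 to 23.0 and A_51_P368696 from 5.64 to 22.7, which gave bounds of 1.42-fold and 1.73-fold higher. A bound compares the BSP-II value with the lowest signal called well above background on the untreated array, or with the probe's own signal there where that was higher. For A_52_P621991 it is the measured ratio of the probe, since 14.1 is above the lowest called signal of 11.4. That probe was still not called, so the lowest called signal is no strict limit of detection. Such one-sided detection was common: 1533 of the 25091 named probes were well above background on the BSP-II array only, 113 of them with a bound of at least 1.5-fold, against 94 on the untreated array only. The difference in background between the arrays moves with these calls; its part in the Apaf1 bounds was not tested.

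Casp6 (A_51_P215922, chromosome 3), an effector caspase known for cutting nuclear lamins, gave 591 untreated and 770 with BSP-II. Scaled, this was 1.13-fold higher, or 0.18 in log2 units (−0.22 to 0.58). This probe was bright against its local background of 50 and 36, and the value stayed between 0.17 and 0.30 under all 7 other ways of processing.

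Xiap, on the X chromosome, gave 38.9 and 43.4 at its leading probe (A_51_P301216), a log2 difference of −0.05 (−0.50 to 0.41). Its second probe (A_52_P933175; 8.45 and 6.68) was not well above background on either array. The third (A_51_P424893) was so on the BSP-II array only (2.94 and 13.7), with a bound of 1.04-fold higher. Measurement of Xiap on these arrays therefore rested on 1 dim spot.

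Birc2 and Birc3, which encode cIAP1 and cIAP2, are neighbouring paralogs on chromosome 9. Birc2 (A_51_P254471, accession NM_007465) gave 739 and 798, a log2 difference of −0.09 (−0.49 to 0.31). Birc3 (A_51_P449171, accession NM_007464), a known target of NF-kB, gave 2888 and 3679, a log2 difference of 0.14 (−0.26 to 0.54). The Birc3 difference exceeded that of Birc2 by 0.24, with an error of 0.29, so the pair did not differ beyond the scanner error. The probe sequences were not used here, and signal shared between these similar transcripts cannot be told apart.

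The start regions of this pair are shown because the neighbours differ in sequence where they share a family and a locus. Each is the 250 bases before the most upstream start site in RefSeq, 5′ to 3′ on the minus strand of build GRCm38.p6, with every CpG in capitals. Birc2 lies at chr9:7837058-7837307 and Birc3 at chr9:7873171-7873420.
Birc2: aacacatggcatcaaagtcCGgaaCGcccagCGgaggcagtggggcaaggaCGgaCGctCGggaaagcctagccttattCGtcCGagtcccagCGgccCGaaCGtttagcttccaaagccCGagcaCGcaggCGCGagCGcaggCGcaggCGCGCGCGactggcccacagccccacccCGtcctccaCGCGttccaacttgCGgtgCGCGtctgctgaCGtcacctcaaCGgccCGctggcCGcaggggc
Birc3: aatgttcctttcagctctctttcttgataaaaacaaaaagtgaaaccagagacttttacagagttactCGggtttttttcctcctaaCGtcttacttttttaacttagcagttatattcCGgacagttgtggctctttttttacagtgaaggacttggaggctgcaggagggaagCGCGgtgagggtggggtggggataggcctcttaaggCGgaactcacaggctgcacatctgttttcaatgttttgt
The Birc2 stretch holds 31 CpGs at 68.4% G+C, and the Birc3 stretch holds 6 at 43.6%. Over windows of 300 bases that also take in the first 50 transcribed bases, the most upstream windows of the 8 members had a median of 21 CpGs, against 7 over all 32851 promoter windows of the table. Xiap had 3 windows, with 5, 20 and 2 CpGs, and Birc2 had 2, with 34 and 21. Only the most upstream window of a member was counted, while the table's windows include further starts of a gene. By that window, Casp8 (5 CpGs), Xiap (5) and Birc3 (7) had few, and Apaf1 (46), Birc2 (34), Casp9 (28), Casp2 (26) and Casp6 (16) had more. Both kinds included genes higher and genes lower on the BSP-II array.

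Motifs were searched as letters on both strands of these windows. The GC box (GGGCGG) was found in 5 of the 8 member windows and in 35.7% of all windows, the CCAAT box (CCAAT) in 2 of 8 and 37.4%, and the TATA box (TATAAA) in 0 of 8 and 13.6%. The NF-kB consensus was in 0 of 8 and in 4.51% of all windows. These counts use the most upstream window of each member. A further Xiap window held the TATA box, and the further Birc2 window held the GC and CCAAT boxes. A match describes letters in a window and is no binding site, and the absence of letters from these windows says nothing of the factors.

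The members were set against all 12857 genes well above background on both arrays. None was at least 1.5-fold higher, where 1.19% of all genes were, and none at least 1.5-fold lower, where 4.84% were. At the lower threshold of 0.32 on the log2 scale the members' count was also 0 each way, against 5.61% of all genes higher and 14.5% lower. At such shares a count of 0 among 8 genes says little about the members. The members' median was 0.05 and that of all genes −0.03, with quartiles of −0.19 and 0.11. Outside those quartiles lay 6 members: Casp9, Apaf1, Casp6 and Birc3 above and Casp2 and Casp8 below. Of all genes, 93.1% had a lower value than Casp9 and 19.8% a lower value than Casp2. All 8 lay inside the range that holds the middle 95% of genes, −0.75 to 0.45.

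**Figure D2:**
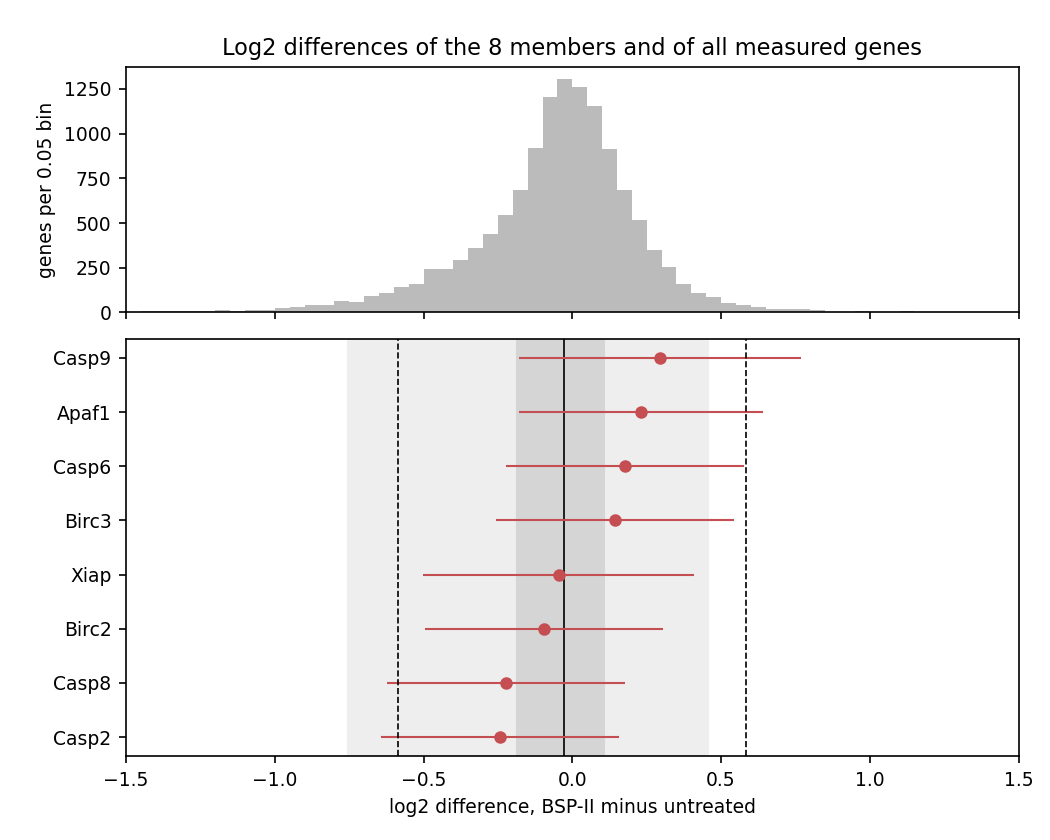
Top, the number of genes per 0.05 of log2 difference (BSP-II minus untreated) over all 12857 measured genes, of which 42 lie beyond the axis; bottom, the 8 members with their 95% interval from the scanner error, over the middle 50% (dark) and 95% (light) of all genes, with dashed lines at 1.5-fold. Every member's interval includes 0 and every point lies inside the light band.

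The split between higher and lower genes depended on the scaling, which shifts all members together. Of the genes at least 1.5-fold different, 153 were higher and 622 lower (19.7% higher); scaled to the array medians, which added 0.12 to every log2 difference, 306 were higher and 386 lower (44.2%). The higher share was 34.6% with quantile normalization, 38.9% with loess and 54.6% in the authors' value table. With median scaling or in the authors' table Birc2 and Xiap were above 0, so that 6 of 8 members were higher, and Casp9 and Apaf1 passed 0.32. Quantile and loess scaling turned Xiap alone, to 0.07 under each, with Casp9 past 0.32.

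Distances between members do not change with a constant shift, but they change with other processing. Without background subtraction Casp9 was at −0.03 and Casp2 at −0.23, and with normexp at 0.11 and −0.24. Casp6 was the highest member under both. The range over the members was 0.43 without background subtraction and 0.65 with loess. The distances that follow are those as reported. Casp9 exceeded Casp2 by 0.54 (1.45-fold), with an error of 0.32, and exceeded Casp8 by 0.52, also with an error of 0.32. Apaf1 exceeded Casp2 by 0.47 with an error of 0.29, and Casp9 exceeded Apaf1 by 0.06 with an error of 0.32. Casp8 and Casp2 were 0.02 apart. In the order Casp9, Apaf1, Casp6, Birc3, Xiap, Birc2, Casp8, Casp2, every distance between neighbours was within 1 scanner error. Of the 28 distances between members, 11 exceeded 1 error and 0 exceeded 2 errors.

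**Figure D3:**
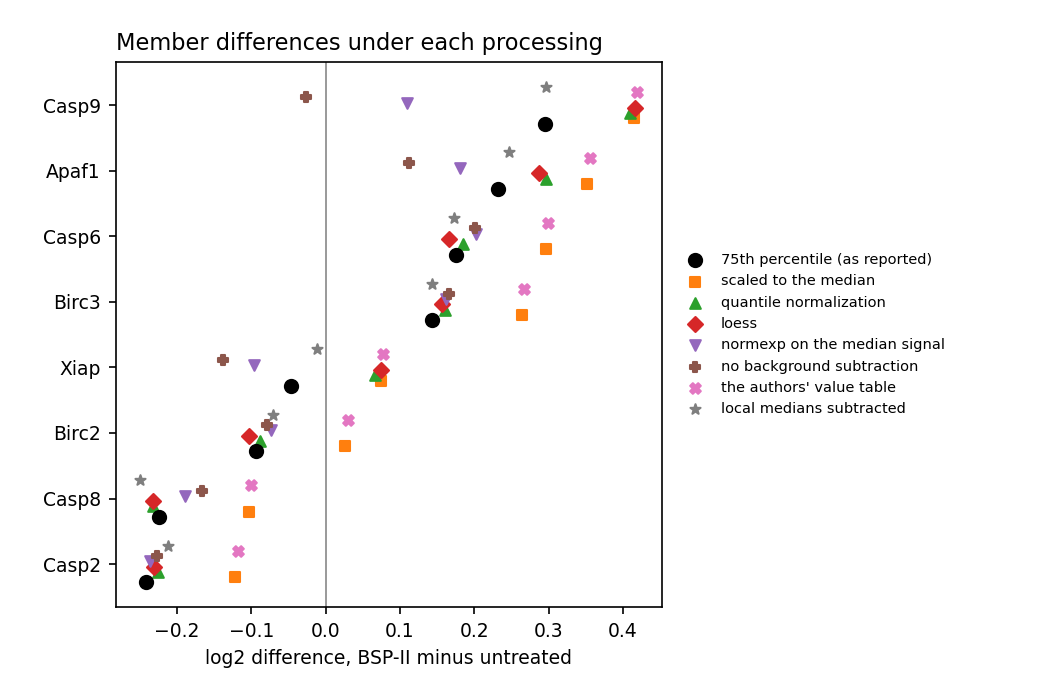
Log2 difference (BSP-II minus untreated) of the leading probe of each member, as reported (black) and under 7 other ways of processing. Casp2 and Casp8 stay below 0 and Apaf1, Casp6 and Birc3 above it, while the points of Birc2, Xiap and Casp9 lie on both sides.

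How far 1 probe can be trusted was described by genes with several. Over 4032 genes with at least 2 probes well above background on both arrays, the brightest pair differed by a median of 0.13 in log2 difference with a 90th percentile of 0.48, and 35.4% of pairs had opposite signs. For the 149 probes printed at several spots, the spots of a probe had a median SD of 0.07. The median gap lay between the absolute differences of Birc2 and Birc3. Genes in the dimmer part of the arrays spread more (SD 0.39 against 0.18 in the brighter part), and Casp9, Apaf1 and Xiap are 3 members in the dimmer part.

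The other genes of the pathway were taken from 6 lists with 37 genes, of which 35 were matched and well above background on both arrays. At least 1.5-fold higher were 0 of the 35, where 1.19% of all genes were. At least 1.5-fold lower were 2, Casp14 and Lmnb1, where 4.84% of all genes were. With 35 genes these counts are not set apart from those shares. Their median was −0.04, and 16 of the 35 lay above the median of all genes.

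Of the 4 other caspases given here, 2 were above 0 and 2 below. Casp14, known from the cornifying epidermis, went from 24.7 to 13.8, a difference of −1.05 near background. It was past 1.5-fold in 9 of 11 settings and at −0.20 in the least. For a gene with 1 probe, such as Casp14, settings that filter genes or average probes repeat the reported value. They are no separate checks. Casp12 was dim, at 37.7 and 52.1 (0.26). Among the inflammatory caspases Casp1 was at −0.03 and Casp4 at 0.16.

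The genes listed as partners of the initiator caspases were all below 0 (6 of 6), with a median of −0.18. The list also holds a decoy of Casp8 (Cflar) and a substrate of it (Bid). The median of all genes was below 0 too, at −0.03, and 1 of the 6 (Bid) lay above it. Bid was above 0 in 7 of 12 settings, and those that filter genes or average probes repeat its reported value. For Casp2, the partner Pidd1 was at −0.30 (174 and 163), with −0.07 and 0.22 at its other probes, and Cradd was at −0.30 (309 and 289). For Casp8, the decoy Cflar, which lies beside Casp8 on chromosome 1, was at −0.26 (429 and 414), with −0.36, −0.13 and −0.50 at its other probes. Fadd was at −0.07, with −0.39 at its dimmer other probe (79.4 and 69.7). Cytochrome c (Cycs) was at −0.10, with −0.28 and −0.19 at its other probes, and the Casp8 substrate Bid at −0.00060. With median scaling 3 of the 6 partners were above 0, and their median was −0.06 against 0.09 for all genes. A constant shift leaves their place among all genes as it was. Above the median of all genes were 3 of 6 without background subtraction and 2 of 6 with normexp. With quantile normalization and with loess it was 1 of 6, as reported. Of the marker lists, 7 of 8 plasma cell and hybridoma markers were also below 0, with a median of −0.16. So were 4 of 5 measured T cell markers, with a median of −0.31. Above the median of all genes were 2 of these 8 and 1 of these 5. The 3 measured fibroblast markers had a median of 0.03 and the 2 macrophage markers 0.53. Of the macrophage markers, Adgre1 was at 0.16 and Csf1r at 0.90. Another Csf1r probe, well above background on both arrays (73.5 and 50.2), was at −0.76. The part of these markers in the partners' values was not tested.

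Other proteins with the IAPs' BIR domain went both ways, 2 of 6 above 0, with a median of −0.08. Naip5, a sensor of bacterial flagellin, was at −0.30 (53.5 and 50.3), Birc5 (survivin), which acts in cell division, at −0.26 (6756 and 6495), and Naip2 at 0.19 (257 and 339). The Naip genes are close copies of each other, and their probes may share signal. Antagonists of the IAPs were nearer 0, with a median of 0.01 over 4 genes: Septin4 was at −0.18, Xaf1 at 0.09 and Htra2 at 0.04, each within 1 error.

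Among partners of Birc2 and Birc3 in TNF receptor and NF-kB signalling, 4 of 6 were below 0, with a median of −0.11. The adaptors Traf2, Traf1 and Traf3 were at −0.31 (2223 and 2069), −0.20 (112.2 and 112.5) and −0.18 (4460 and 4529). Traf1 and Traf3 had nearly equal processed signals on the arrays before scaling. Traf2, which holds Birc2 and Birc3 in receptor complexes, was lower before scaling too. It lay between −0.36 and −0.19 in all 12 settings, of which those that filter genes or average probes repeat its reported value.

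Of the caspase substrates and DNA fragmentation factors, 5 of 9 were above 0, with a median of 0.08. Lmnb1, which encodes lamin B1 of the nuclear lamina, was the bright gene with the largest difference in the 6 lists: its single probe gave 2133 untreated and 1616 with BSP-II, a difference of −0.61 with an error of 0.20. It was at least 1.5-fold lower in 10 of 12 settings and lay between −0.65 and −0.48 over them. The settings that filter genes or average probes repeat its reported value, so the 10 are not separate checks. Gsdme, a gasdermin cut by effector caspases, was at 0.25 (112 and 154), and the kinase Rock1 at 0.23 (1163 and 1576), with −0.18 and −0.26 at its dim other probes. Lmna, which encodes the A-type lamins, was at −0.07.

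**Figure D4:**
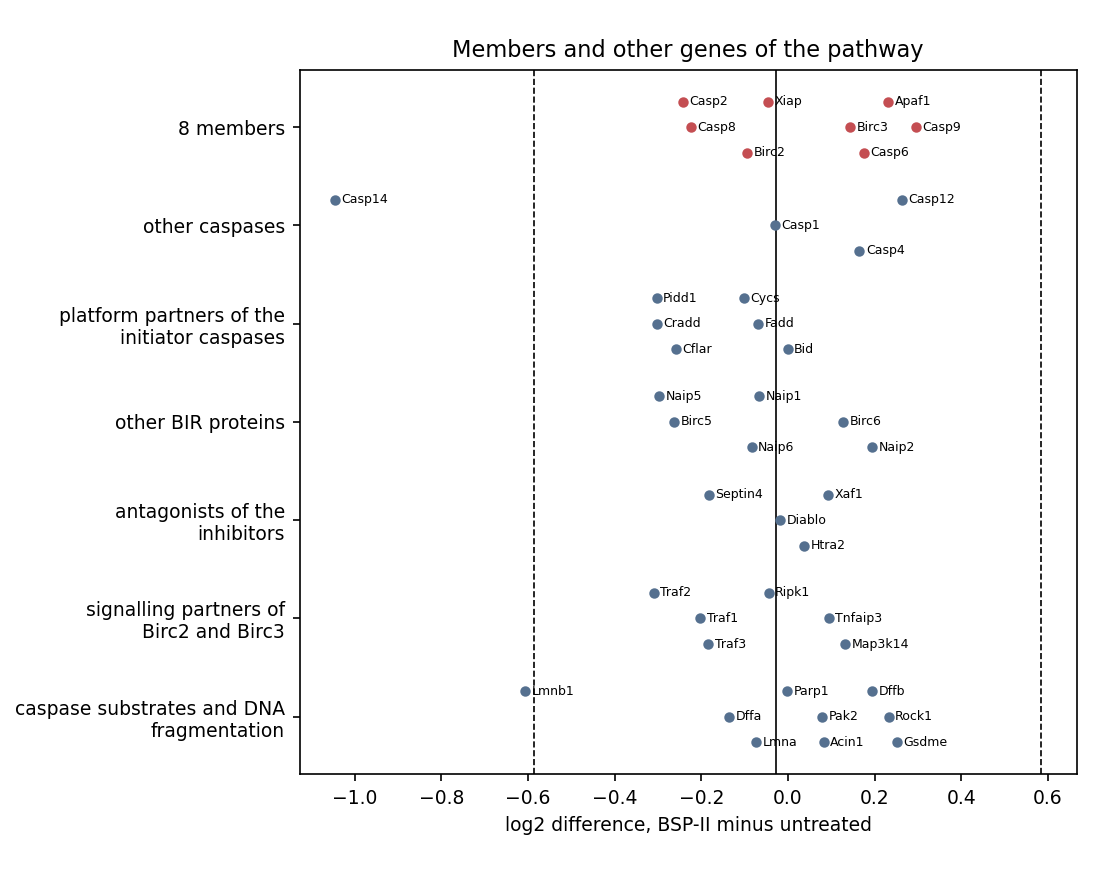
Log2 difference (BSP-II minus untreated) of the 8 members (red) and of the 35 measured genes of 6 pathway lists (blue), each by its brightest probe; the solid line is the median of all genes and dashed lines mark 1.5-fold. Casp14 and Lmnb1 lie past the lower line, and no gene lies past the upper one.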

How the data were processed

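Per the submitters' processing notes, Agilent Feature Extraction (version 10.5.1.1) produced the scanner files, 1 per dose. Their deposited intensity values comprise a processed, background-subtracted signal with its error and the raw median brightness of spot and local background, per the file headers. The deposited flags (saturated, outlier, positive and significant, well above background) are 0 or 1. The authors' deposited value table is on a log2 scale (23296 probes, column medians 2.88 and 2.99) and was found to be the processed signal in log2 shifted by a constant for each array (−4.85 and −4.94 as medians), whose origin the sources do not give.

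Control spots and 189 outlier spots were left out, spots of 1 probe averaged, and the log2 processed signal was reduced by each array's 75th percentile. Probes were named by unversioned accession from a RefSeq table of GRCm38.p6, for names and gene order alone, since the array grid is on mm9; 25091 of 41163 probes (61.0%) matched. A probe counts as well above background where at least 50% of its spots do. Each gene was represented by its brightest probe, and all member probes are given. Of each pathway list the 3 genes with the largest absolute difference are named, and some others were named after their values were seen; some list genes are not reported here. Members and lists were chosen with earlier results of these data known. The planned loess (span 0.3), quantile, median, normexp (offset 50), unsubtracted, local-median (10 rows and columns), filter, probe and fold alternatives were run; normexp used the median signal. The steps were tested on simulated data. Intervals are 1.96 scanner errors. Python 3.11.15, numpy 2.4.6, pandas 2.3.3, statsmodels 0.14.6, matplotlib 3.10.9, R 4.3.3 and limma 3.58.1 were used.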

Additional observations from a re-analysis of the deposited data

How the results depend on the processing

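No paired analysis was possible because the groups share 1 replicate number and hold 1 array each. No member passed 1.5-fold at a probe well above background on both arrays under the alternatives run. This count leaves out the Apaf1 bound of 1.73-fold. The members' median, 0.05 as reported, was 0.17 with median scaling, 0.17 in the authors' value table, 0.11 with quantile normalization, 0.12 with loess, 0.019 with normexp, −0.053 without background subtraction and −0.094 among the brighter genes, where 5 members remain. Of all genes, 153 higher and 622 lower as reported became 306 and 386 with median scaling, 231 (higher) with quantile normalization, 245 and 385 with loess, 31 and 96 with normexp, 31 and 171 without background subtraction, and 307 and 255 in the authors' value table. They became 677 and 2726 without a filter on dim probes, 17 and 63 among the brighter genes, 721 and 1859 past a log2 difference of 0.32 and 26 and 129 at 2-fold. The 2 lower pathway genes became 1 with median scaling, normexp, no background subtraction, the authors' table, the brighter genes and 2-fold. Local medians, and the median or mean over probes, left these counts within 1.5 times. Member probes well above background numbered 8 untreated and 11 with BSP-II, and those called positive and significant 11 and 12. The cause of these shifts was not tested. Signal over background limits Casp9, Apaf1 and Xiap, and the number of arrays limits every value.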
